A study of Mus musculus with 3 samples.

Results

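The genes described here are 7 genes of type 2 immunity, taken from the 30406 gene IDs that all 3 libraries list: the type 2 cytokine genes Il4, Il13 and Il5, the IL-25 receptor gene Il17rb, the IL-6 receptor gene Il6ra, and the colony stimulating factor genes Csf1 and Csf2. They were matched by symbol, and all 7 were listed in every library. Thymic iNKT cells, T cells that recognize lipids presented by CD1d through a semi-invariant receptor, were sequenced as 1 droplet library each from C57BL/6 mice without BMT (labelled WT, 7 weeks of age), from BMT F1 mice without GvHD (BM only, labelled Non-GVHD) and from BMT F1 mice with GvHD (BM + Spl, labelled GVHD). Both BMT groups were 16 weeks of age and 9 weeks past haplo-BMT, in which F1 recipients of a C57BL/6 x BALB/c cross were lethally irradiated and given T cell-depleted C57BL/6 marrow. The BM + Spl recipients were given C57BL/6 splenic cells as well, so host cells, donor marrow-derived cells and, in BM + Spl, donor splenic T cells may all be among the sorted cells. Each library came from pooled thymi, from which CD8-labelled cells were depleted before cells positive for TCRβ and the CD1d tetramer and negative for CD24 and NK1.1 were sorted.

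NKT2 cells are the iNKT subset with high PLZF (Zbtb16) and GATA3, and make IL-4 in the thymus without being challenged. IL-4 acts on neighbouring thymocytes and on NKT cells through a receptor that has a chain in common with that of IL-13, whereas IL-5 acts on eosinophils. IL-25 is sensed by a receptor built from IL-17RB and IL-17RA, which marks NKT2 and part of the NKT17 cells. M-CSF (Csf1) and GM-CSF (Csf2) act on macrophages, dendritic cells and granulocytes, and Il6ra encodes the chain that binds IL-6.

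Levels are given as CPM, the UMIs (unique molecules) of a gene per 1000000 UMIs of the cells of a subset. With 1 library per condition there was no test, and every 95% interval covers counting error only, not the differences between mice or the draw of the gates. Cells were assigned to subsets by marker genes that include none of the 7 genes. Each cell was thinned to 2500 UMIs, and an NKT2-gated cell then had to show Zbtb16, at least 3 of 8 NKT2 markers (Zbtb16, Izumo1r, Pdcd1, Id3, Slamf6, Tox, Icos and Cd4), and at most 1 marker each of NKT1 and NKT17 cells. NKT1-gated cells showed at least 3 of 8 NKT1 markers (Tbx21, Il2rb, Cxcr3, Nkg7, Xcl1, Klrd1, Ccl5 and Ctsw). They also had to show more NKT1 than NKT2 markers and at most 1 NKT17 marker. NKT17-gated cells showed at least 2 of 8 NKT17 markers, among them Il23r. Intermediate cells showed Zbtb16, at least 3 NKT2 markers, 2 or more NKT1 markers and at most 1 NKT17 marker, and were not NKT1-gated. Cells with 3 or more S or G2/M phase markers were called cycling.

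Of 4421 C57BL/6, 5135 BM only and 5085 BM + Spl cells that passed the filters and held 2500 UMIs, 984, 331 and 607 were non-cycling NKT2-gated cells and 144, 65 and 133 were cycling NKT2-gated cells. Of the non-cycling cells, 272, 73 and 144 lay at the threshold of 3 markers. The 8 NKT2 markers summed to 3014, 2902 and 2995 CPM in these cells against 811, 534 and 1103 CPM in NKT1-gated cells. Markers of type 2 innate cells, mast cells and basophils, which also make type 2 cytokines, were near 0 in NKT2-gated cells: between 2 and 5 of 8 markers had a UMI, their sum was 1.02 to 2.46 CPM, and Fcer1a, Mcpt8 and Ms4a2 were at 0 in all 3 libraries. In NKT1-gated cells the same list summed to 3.60, 3.06 and 23.1 CPM. Markers of B cells, CD8 T cells and myeloid cells summed to at most 2.04, 3.06 and 17.3 CPM in NKT2-gated cells. Those of regulatory T cells summed to 87.3 to 177 CPM in NKT2-gated cells. In NKT1-gated cells the sums reached 6.88, 37.8 and 244 CPM, and 139 to 958 CPM for regulatory T cell markers. The myeloid list held Lyz2, Csf1r, Cd68, Fcer1g, Tyrobp and Siglech. Its 244 CPM, in BM only, came from 2557 UMIs, of which 1 was of Csf1r. In NKT1-gated cells of C57BL/6, Lyz2 and Siglech were at 0. The sum can thus not be read as a share of myeloid cells. The C57BL/6 library stood apart from the BMT libraries. Its table was made with Cell Ranger 3.0.2 rather than 7.0.0, its median mitochondrial share was 6.48% against 0.687% and 0.511%, and TCR Vβ segments were at 17.7 CPM against 1502 and 1677 CPM. The labels name both 3' and 5' kits without saying which library used which. Levels were therefore contrasted within each library, or between the BMT libraries, and not between C57BL/6 and BMT. The BMT libraries share 43 cell barcodes, held by 3 BM only and 7 BM + Spl NKT2-gated cells, and leaving those out turned no value. Most NKT2-gated cells carried the Vβ segments typical of iNKT cells, 88.8% in BM only and 87.8% in BM + Spl of the cells with a Vβ UMI. Among NKT1-gated cells this share was 86.8% in BM only but 37.6% in BM + Spl, so the NKT1 gate of BM + Spl holds many cells with other receptors. Among NKT17-gated cells it was 60.4% in BM only and 32.8% in BM + Spl, so this gate holds many such cells in both. The segments are not particular to iNKT cells. Of the cells with a Vβ UMI, they were carried by 40% and 32.9% of CD8+ cells and by 25.6% and 22.5% of Foxp3+ cells in BM only and BM + Spl.

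Il4, Il13 and Il5 lie in the type 2 cytokine cluster of chromosome 11. In GRCm38, Il4 (ENSMUSG00000000869) spans chr11:53602982-53618669 and Il13 (ENSMUSG00000020383) chr11:53631324-53634702, both on the minus strand and 12.7 kb apart, and Il5 (ENSMUSG00000036117) lies 86.1 kb further at chr11:53720794-53725106 on the plus strand. The 250 bases before each start (RefSeq, GRCm38.p6, 5′ to 3′ on the strand of the gene) are shown since Il4 and Il13 were read in many NKT2-gated cells and Il5 in none. Capitals mark GGAAA, the core bound by NFAT factors downstream of the T cell receptor, or its reverse complement TTTCC.
Il4, chr11:53618666-53618915, minus strand: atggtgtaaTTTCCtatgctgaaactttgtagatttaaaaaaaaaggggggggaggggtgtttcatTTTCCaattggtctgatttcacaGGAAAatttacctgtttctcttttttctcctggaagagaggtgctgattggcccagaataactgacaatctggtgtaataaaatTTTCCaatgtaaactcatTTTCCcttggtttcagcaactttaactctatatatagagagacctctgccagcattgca
Il13, chr11:53634703-53634952, minus strand: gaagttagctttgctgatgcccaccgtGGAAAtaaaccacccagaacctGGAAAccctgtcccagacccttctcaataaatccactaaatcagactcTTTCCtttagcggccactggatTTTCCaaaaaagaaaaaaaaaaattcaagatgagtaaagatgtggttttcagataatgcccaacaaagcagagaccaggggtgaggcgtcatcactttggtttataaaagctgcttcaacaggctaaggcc
Il5, chr11:53720544-53720793, plus strand: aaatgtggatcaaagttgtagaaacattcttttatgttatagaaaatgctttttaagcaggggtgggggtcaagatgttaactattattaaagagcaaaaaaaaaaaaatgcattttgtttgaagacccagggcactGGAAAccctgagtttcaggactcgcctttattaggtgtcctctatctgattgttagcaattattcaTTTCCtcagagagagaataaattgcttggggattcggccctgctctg
GGAAA occurred at 5 places before Il4, 4 before Il13 and 2 before Il5, counting both strands. Of 32851 promoters of this length 55.6% held the motif and 1.59% held 4 or more copies. GATA, the core of the GATA3 motif, was found once before Il13, once before Il5 and not before Il4, and occurred in 53.6% of all promoters. Such matches describe letters and not binding. Csf2 (chr11:54247271-54249667, minus strand) lies 522 kb beyond Il5 on the same chromosome. Il17rb (chr14:29996135-30008896), Il6ra (chr3:89864059-89913196) and Csf1 (chr3:107741048-107760469) lie elsewhere, all on the minus strand.

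The question of the first comparison was which of the 7 genes set NKT2-gated cells apart from NKT1-gated cells. Il4, Il13, Il17rb, Il6ra and Csf1 were all higher by more than 2-fold in NKT2-gated cells of C57BL/6 and BM only, whereas in BM + Spl only Il4, Il17rb and Il6ra were. Il5 and Csf2, against their place among NKT2 genes, had no UMI in any NKT2-gated cell. Of all genes tested, 7.98% in C57BL/6, 7.92% in BM only and 6.09% in BM + Spl were higher by 2-fold in NKT2-gated cells, and 7.60%, 11.5% and 12.0% were lower. The median log2 ratio was 2.60 over the 5 of the 7 genes with enough UMIs to be tested (20 over both subsets) in C57BL/6, 2.56 over 6 in BM only and 0.61 over 7 in BM + Spl, beside -0.03, 0.04 and -0.02 over all genes tested. The median of BM + Spl was the ratio of Il13 itself, for which 64 of 74 NKT1-gated UMIs lay in 1 cell. Lower by 2-fold were Csf2 in BM only, and Csf2 and Il5 in BM + Spl, both at 0 in NKT2-gated cells. In BM + Spl 27 of the 29 Il5 UMIs and 73 of the 153 Csf2 UMIs of NKT1-gated cells lay in 1 cell each.

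**Figure D1:**
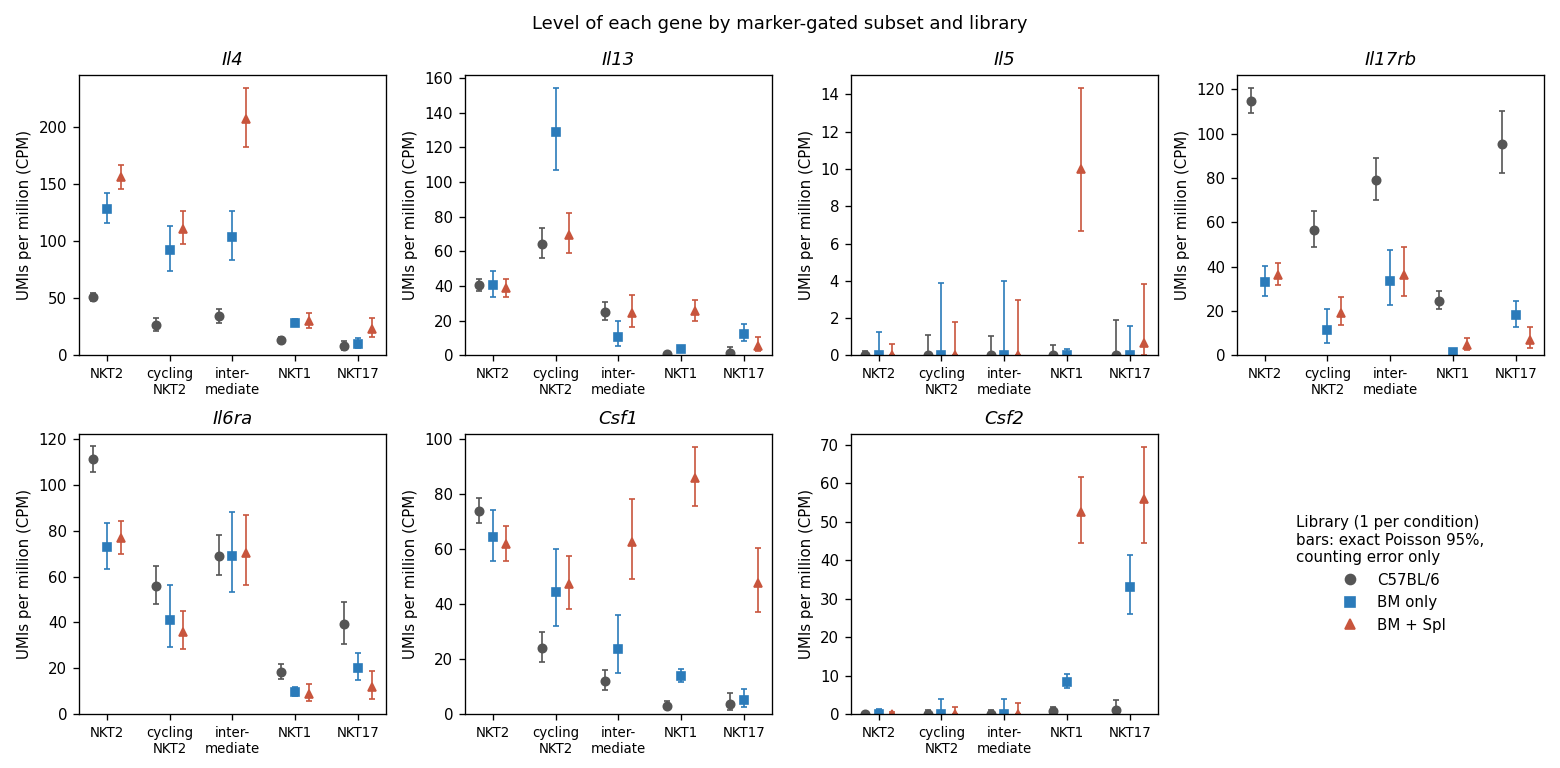
Level of each of the 7 genes (y axis, CPM, from 0) in non-cycling NKT2-gated, cycling NKT2-gated, intermediate, NKT1-gated and NKT17-gated cells (x axis) of the 3 libraries (grey circles C57BL/6, blue squares BM only, red triangles BM + Spl); bars are exact Poisson 95% intervals. Il5 and Csf2 sit at 0 in the NKT2-gated and intermediate cells of every library, and C57BL/6 levels are drawn beside but not compared with those of the BMT libraries.

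Il4, which encodes the signature cytokine of NKT2 cells, was at 50.9 CPM (47.3 to 54.7) in NKT2-gated and 13.3 CPM in NKT1-gated cells of C57BL/6. It was at 128 CPM (116 to 142) against 28.7 CPM in BM only, and at 156 CPM (146 to 167) against 30.3 CPM in BM + Spl. In log2 these ratios were 1.93 (1.61 to 2.27), 2.16 (1.94 to 2.38) and 2.37 (2.05 to 2.70). In every library the NKT2-gated interval lay above that of NKT1-gated cells, while NKT1-gated cells held Il4 too. Il4 UMIs were found in 41.2%, 52.0% and 52.9% of NKT2-gated cells, or 12.2%, 24.2% and 23.6% once each cell was thinned to 2500 UMIs. CD8+ cells, set by 2 or more Cd8a and Cd8b1 UMIs, were read as a rough measure of free RNA. Only 115 of 180 in BM only and 289 of 454 in BM + Spl had a Vβ UMI, against 330 of 331 and 606 of 607 NKT2-gated cells. Not all of them can thus be taken as T cells. An Il4 UMI was in 0.556% of the 180 and 0.441% of the 454 CD8+ cells. Their median depths were 5119 and 5678 UMIs, against 8257 and 8993 UMIs in NKT2-gated cells. After thinning no CD8+ cell had one. C57BL/6 held 1 non-cycling CD8+ cell, too few for such a comparison. Most Il4+ cells held little of it, since 241 of 405, 88 of 172 and 143 of 321 had a single UMI, while the highest had 9, 21 and 23. Of all Il4 UMIs in kept cells 40.9%, 30.3% and 37.2% lay in NKT2-gated cells, cycling or not. Cells in no gate held 45.8%, 33.9% and 45.3%. They made up 39.7%, 19.2% and 40.1% of the cells put through the gates, against 25.5%, 7.71% and 14.6% for NKT2-gated cells. Non-cycling cells in no gate held Il4 at 35.9, 67.0 and 75.0 CPM.

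Il13 had the highest ratio of the 7 genes in C57BL/6, with 575 UMIs in 186 cells (40.4 CPM, 37.1 to 43.8) against 7 UMIs in 7 of 958 NKT1-gated cells (1.05 CPM), a log2 ratio of 5.27 (4.21 to 6.59). In BM only it was at 40.9 CPM (33.9 to 48.9) against 3.82 CPM, a log2 ratio of 3.42 (2.89 to 3.97). BM + Spl gave 38.8 CPM (33.9 to 44.2) against 25.5 CPM, a log2 ratio of 0.61 (0.22 to 1.01) that does not pass 2-fold. The level of NKT1-gated cells there rested on few cells: 74 UMIs lay in 8 of 533 cells and 64 of them in 1 cell. Without the 10 cells that hold most Il13 in the library the ratio was 2.93, with another draw of the thinning 2.87, and among cells with iNKT Vβ segments it turned to -0.53 (-0.92 to -0.11), where 69 UMIs of NKT1-gated cells lay in 3 cells. By share of cells with a UMI, Il13 was in 186 of 984, 43 of 331 and 76 of 607 NKT2-gated cells (C57BL/6, BM only, BM + Spl), whereas it was in 0.731%, 1.44% and 1.5% of NKT1-gated cells. None of 180 and 454 CD8+ cells of the BMT libraries had one. Il13 was carried by few cells also within the NKT2 gate, with 27.5%, 61.7% and 57.1% of its UMIs in the 10 highest cells, against 10.1%, 21.5% and 17.3% for Il4. Of all Il13 UMIs in kept cells 42.1%, 35.4% and 29.9% lay in NKT2-gated cells, cycling or not. Cells in no gate held more, at 51.8%, 50.6% and 57.5%, and also outnumbered NKT2-gated cells, as given for Il4. The non-cycling ones held Il13 at 26.4, 32.5 and 39.4 CPM. Their intervals of 28.1 to 37.4 CPM in BM only and 36.0 to 43.0 CPM in BM + Spl overlapped those of NKT2-gated cells. By CPM, Il13 thus did not clearly set the NKT2 gate apart from cells in no gate in the BMT libraries.

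Il17rb was at 115 CPM (109 to 120) in NKT2-gated, 24.7 CPM in NKT1-gated and 95.5 CPM (82.1 to 110) in NKT17-gated cells of C57BL/6. In BM only these levels were 33.0 (26.8 to 40.3), 1.34 and 18.0 CPM (13 to 24.4), and in BM + Spl 36.2 (31.5 to 41.5), 4.47 and 6.90 CPM (3.31 to 12.7). The order NKT2, NKT17, NKT1 held in all 3 libraries, but NKT2-gated and NKT17-gated cells of C57BL/6 were close at a log2 ratio of 0.27 (0.04 to 0.49), and the intervals of NKT17-gated and NKT1-gated cells overlapped in BM + Spl. Over NKT1-gated cells the log2 ratio was 2.21 (1.98 to 2.45), 4.63 (3.81 to 5.55) and 3.02 (2.21 to 3.95). In C57BL/6 67.1% of NKT2-gated cells had an Il17rb UMI, in BM only 21.5% and in BM + Spl 24.9%, beside 3.33% and 3.08% of CD8+ cells in the BMT libraries. The shares of NKT1-gated cells there, 0.511% and 1.69%, were below those of CD8+ cells. CD8+ cells therefore cannot serve as a background for Il17rb, and the NKT1-gated levels were not set against one. Among NKT1-gated cells with iNKT Vβ segments Il17rb was at 1.36 CPM in BM only. In BM + Spl it was at 8.84 CPM, from 10 UMIs in 7 of 194 such cells. NKT17-gated cells with these segments held Il17rb at 17.7 CPM in BM only and 16.0 CPM in BM + Spl. The latter rested on 8 UMIs in 7 of 89 cells. Unlike Il13, Il17rb was spread over many cells of the NKT2 gate, with 6.36%, 27.8% and 16.6% of its UMIs in the 10 highest cells and at most 13, 4 and 5 UMIs in a cell.

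Il6ra had the same order of subsets as Il17rb. NKT2-gated cells held 111 (106 to 117), 72.9 (63.4 to 83.3) and 77.0 CPM (70.0 to 84.4) in C57BL/6, BM only and BM + Spl, NKT17-gated cells 39.1, 20.2 and 11.7 CPM, and NKT1-gated cells 18.3, 9.64 and 8.95 CPM. The log2 ratio over NKT1-gated cells was 2.60 (2.34 to 2.88), 2.92 (2.57 to 3.27) and 3.1 (2.53 to 3.73). The intervals of NKT17-gated and NKT1-gated cells overlapped in BM + Spl. Il6ra was also read outside the iNKT gates, at 24.1 and 20.5 CPM in CD8+ cells and 41.2 and 16.6 CPM in Foxp3+ cells of BM only and BM + Spl, so NKT1-gated cells of these libraries lay below both.

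Csf1, the M-CSF gene, did not have 1 order of subsets in the 3 libraries. Of its UMIs 61.5% in C57BL/6, 32.4% in BM only and 22.4% in BM + Spl lay in NKT2-gated cells, cycling or not. In C57BL/6 it was at 73.8 CPM (69.4 to 78.4) in non-cycling NKT2-gated cells against 3.15 CPM in NKT1-gated, 3.65 CPM in NKT17-gated and 11.9 CPM in intermediate cells. The log2 ratio over NKT1 was 4.55 (3.93 to 5.25). In BM only the NKT2-gated level of 64.4 CPM (55.5 to 74.2) stood against 13.9 CPM in NKT1-gated cells, a log2 ratio of 2.21 (1.89 to 2.53), and CD8+ cells held 17.6 CPM. In BM + Spl the order turned, with 61.7 CPM (55.4 to 68.4) in NKT2-gated and 85.7 CPM (75.4 to 97.0) in NKT1-gated cells, a log2 ratio of -0.47 (-0.71 to -0.24). There Csf1 was found in 132 of 533 NKT1-gated cells with at most 8 UMIs in a cell, and its 10 highest cells held 20.1% of the UMIs. Foxp3+ cells of BM + Spl held 83.1 CPM, and regulatory T cell markers summed to 958 CPM in its NKT1-gated cells against 139 CPM in those of BM only. Their part in the result was not tested. Restricted to cells with iNKT Vβ segments, the levels were 64.2 CPM in NKT2-gated and 68.1 CPM in NKT1-gated cells, and the log2 ratio of -0.08 (-0.45 to 0.29) had an interval that included 0.

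**Figure D2:**
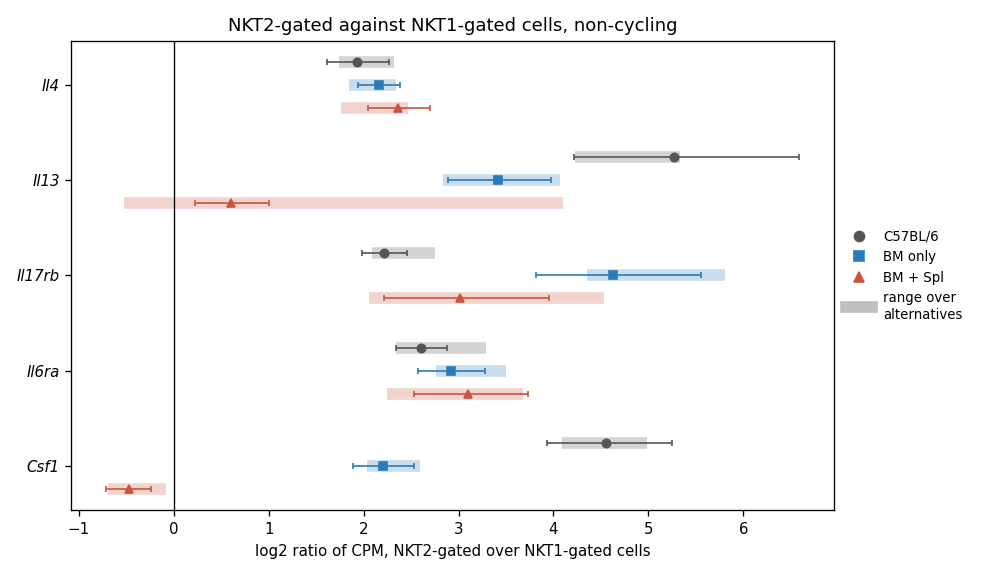
Log2 ratio of CPM of non-cycling NKT2-gated over NKT1-gated cells (x axis) for the 5 genes with UMIs in both subsets of every library (y axis), by library; thin bars are exact 95% counting intervals and pale bands the range over alternative settings. Il4, Il17rb and Il6ra lie above 0 throughout, whereas Csf1 of BM + Spl lies below 0, at -0.47, and Il13 of BM + Spl lies at 0.61 with a band that runs from -0.53 to 4.10.

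Intermediate cells, which show NKT2 and NKT1 markers together, held Il17rb and Il6ra close to the level of NKT2-gated cells in the BMT libraries, with log2 ratios of NKT2 over intermediate of -0.02 (-0.61 to 0.62) and 0.08 (-0.33 to 0.51) in BM only and -0.01 (-0.48 to 0.49) and 0.13 (-0.21 to 0.48) in BM + Spl. In C57BL/6 both were higher in NKT2-gated cells, by 0.54 (0.35 to 0.72) and 0.69 (0.50 to 0.89). Il4 was at 34.4, 103 and 207 CPM in intermediate cells. NKT2-gated cells thus held more of it in C57BL/6 (log2 ratio 0.56, 0.29 to 0.85) and less in BM + Spl (-0.41, -0.61 to -0.20), and the interval included 0 in BM only (0.31, -0.02 to 0.65). By CPM, Il13 was higher in NKT2-gated than intermediate cells in all 3 libraries, by 0.68 (0.36 to 1.01), 1.92 (0.99 to 3.02) and 0.68 (0.12 to 1.28). The ratio of BM only rested on 10 UMIs in 7 intermediate cells. By share of cells with a UMI the gates of BM + Spl were close, at 12.5% of NKT2-gated and 13.6% of intermediate cells. There 10 cells held 57.1% of the NKT2-gated Il13 UMIs, and no intermediate cell had more than 4.

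Il5 and Csf2 were looked for in every kept cell, since they were absent from the NKT2 gate. The count of 0 in 984, 331 and 607 non-cycling NKT2-gated cells allows up to 0.21, 1.02 and 0.52 CPM (3 counts over the group), and the cycling NKT2-gated and intermediate cells held none either. Il5 was read in no cell of C57BL/6, in 6 cells of BM only (12 UMIs) and in 27 cells of BM + Spl (116 UMIs). None of these cells had a Zbtb16 UMI. The NKT2 and intermediate gates require one, so for Il5 their counts of 0 follow from this and are not separate results. Of the 27 cells in BM + Spl 21 were in no gate, 3 were NKT1-gated and 1 was NKT17-gated, 26 held Cd3e, 21 Cd4, 20 Gata3, 19 Rora, 14 the chemokine receptor gene Ccr8, 10 Il13 and 6 Il4. Cd3e, Cd4 and Gata3, each counted apart, were thus in most of these cells and Zbtb16 in none. Their median depth was 4917 UMIs against 6507 UMIs in cells without Il5, of which 35.9% held Zbtb16. For the other genes no share among cells without Il5 is given here. Of the Il5+ cells 12 of 27 carried iNKT Vβ segments (44.4%, 25.5% to 64.7%), against 55.1% (53.7% to 56.5%) of the cells without Il5.

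Csf2 was read in 6 cells of C57BL/6 (7 UMIs), 119 of BM only (217 UMIs) and 116 of BM + Spl (429 UMIs). In NKT1-gated cells it was at 0.750 CPM, 8.40 CPM (6.74 to 10.4) and 52.6 CPM (44.6 to 61.7), and the log2 ratio of NKT2-gated over NKT1-gated cells had an upper 95% limit of -0.97, -2.71 and -6.36. In C57BL/6 this rested on 5 UMIs. NKT17-gated cells held 1.04, 33.0 (26.1 to 41.3) and 55.9 CPM (44.4 to 69.5). The Csf2+ cells of the BMT libraries differed in their Vβ segments and in how many held Nkg7 or Zbtb16. Cells without Csf2 differed in these segments as well. In BM only 89 of 115 with a Vβ UMI carried iNKT segments (77.4%, 68.7% to 84.7%), against 73.2% of cells without Csf2. Of the 119 Csf2+ cells 100 held Nkg7 and 33 Zbtb16, and 74 were in the NKT1 gate, which uses Nkg7 as a marker. In BM + Spl 28 of 110 carried iNKT segments (25.5%, 17.6% to 34.6%), against 55.7% of cells without Csf2. Of its 116 Csf2+ cells 61 held Nkg7, 4 Zbtb16, 78 Cd4 and 59 Ccr8. For these marker genes no share among cells without Csf2 is given here, and Cd4 and Ccr8 are given for BM + Spl only. NKT1-gated cells, cycling or not, made up 43.9% of the cells put through the gates in BM only and 11.3% in BM + Spl. The marker counts therefore cannot be read as a trait of Csf2+ cells. Within the NKT1 gate of BM + Spl, cells without iNKT Vβ segments held 143 of 153 Csf2 UMIs and 80.6 CPM, against 8.84 CPM in cells with them, and 73 of the 153 UMIs were in 1 cell. UMIs of Csf2 in NKT17-gated cells were likewise concentrated, with 35 of 77 in 1 cell of BM only and 32 of 81 in 1 cell of BM + Spl.

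The next comparison asked whether each gene made up a larger or smaller share of the UMIs of dividing NKT2-gated cells. By CPM, Il13 was higher in cycling than non-cycling NKT2-gated cells in all 3 libraries, while Il4, Il17rb, Il6ra and Csf1 were lower. CPM is a share of all UMIs and cycling cells held more UMIs, so a lower CPM need not mean fewer UMIs per cell. As deposited, Il4 was in 52.3% of cycling and 52.0% of non-cycling cells of BM only, and in 57.1% and 52.9% of BM + Spl. Il13 was at 64.2 CPM (55.9 to 73.4), 129 CPM (107 to 154) and 69.7 CPM (58.8 to 82.0) in cycling cells of C57BL/6, BM only and BM + Spl, against 40.4, 40.9 and 38.8 CPM in non-cycling cells. The log2 ratios were 0.67 (0.44 to 0.90), 1.66 (1.28 to 2.04) and 0.84 (0.53 to 1.15), and over the alternative settings they stayed between 0.53 and 1.22, 1.26 and 2.40, and 0.67 and 1.35. Cycling cells were deeper, with medians of 22727, 14931 and 15627 UMIs against 13554, 8257 and 8993 UMIs, so cells with a UMI were counted at equal depth as well. After thinning Il13 was detected in 13.2% (8.13 to 19.8), 23.1% (13.5 to 35.2) and 12.0% (7.04 to 18.8) of cycling cells, and in 5.59% (4.24 to 7.21), 6.04% (3.73 to 9.18) and 4.61% (3.09 to 6.60) of non-cycling cells.

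By the criterion of 1.5-fold, 1 of the 5 genes read in these cells (Il13) was higher in cycling cells of each library, and 4 in C57BL/6, 2 in BM only and 2 in BM + Spl were lower. Over the alternative settings the count of higher genes was 0 or 1 in C57BL/6, where Il13 fell short of 1.5-fold in 1 setting, and 1 in both BMT libraries, and the count of lower genes ran from 2 to 4 in C57BL/6 and BM only and from 2 to 3 in BM + Spl. Of all genes, 16.4%, 17.7% and 16.8% were higher and 12.6%, 15.5% and 11.8% lower by that criterion in C57BL/6, BM only and BM + Spl. Il17rb was at 56.5, 11.6 and 19.2 CPM in cycling cells, with log2 ratios of -1.02 (-1.25 to -0.80), -1.51 (-2.55 to -0.60) and -0.92 (-1.44 to -0.42). Il6ra, at 55.9, 41.3 and 36.0 CPM, had ratios of -0.99 (-1.22 to -0.77), -0.82 (-1.35 to -0.32) and -1.09 (-1.47 to -0.74). Il4 was at 26.9, 92.0 and 111 CPM in cycling cells, and its ratios of -0.92, -0.48 and -0.49 had intervals below 0 (-1.25 to -0.60, -0.83 to -0.14 and -0.71 to -0.28) but came as close to 0 as -0.18, -0.12 and -0.10 under other settings. Csf1 had a log2 ratio of -1.63 (-1.97 to -1.30) in C57BL/6, -0.53 (-1.05 to -0.05) in BM only and -0.39 (-0.73 to -0.06) in BM + Spl, and the sign of the last turned under other settings. Cycling cells of all subsets, together with the 380, 190 and 347 in no gate, were also split by phase. This gave 210, 65 and 111 cells in G2/M and 354, 310 and 408 in S phase, and ties were left out. Il13 was at 50.0, 44.0 and 29.4 CPM in G2/M and 55.0, 63.2 and 49.1 CPM in S phase. The log2 ratios of G2/M over S phase were -0.14 (-0.38 to 0.10), -0.52 (-1.08 to -0.01) and -0.74 (-1.21 to -0.30). The intervals of both BMT libraries lay below 0 and that of C57BL/6 included it.

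**Figure D3:**
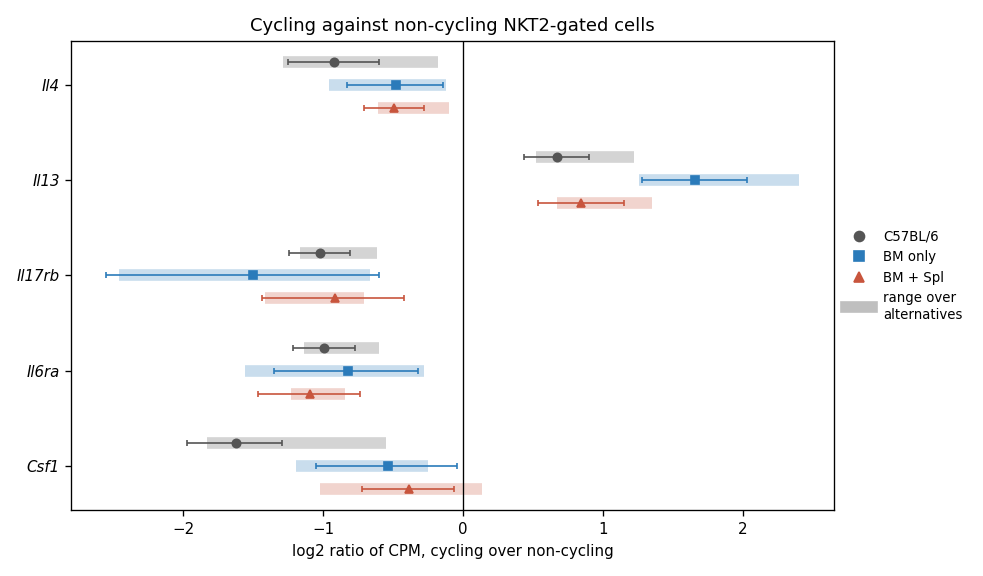
Log2 ratio of CPM of cycling over non-cycling NKT2-gated cells (x axis) for 5 genes (y axis), by library; thin bars are exact 95% counting intervals and pale bands the range over alternative settings. Il13 lies above 0 in each library and setting, whereas Il17rb and Il6ra lie below 0.

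Whether single cells hold more than 1 of these RNAs was asked in NKT2-gated cells, cycling or not, after thinning each to 2500 UMIs so that deep cells do not make genes go together, for the 10 pairs of the 5 genes read there. Among 1128 C57BL/6, 396 BM only and 740 BM + Spl cells, Il4 and Il13 were found together in 13, 12 and 24, where independent detection would give 8.66, 7.87 and 10.2. An Il13 UMI was seen in 9.85%, 13.5% and 14% of Il4+ cells and in 6.12%, 7.49% and 3.51% of Il4- cells. The log2 ratio of these shares was 2.0 (1.18 to 2.82) in BM + Spl, whereas the intervals included 0 in C57BL/6 (0.69, -0.14 to 1.51) and BM only (0.85, -0.10 to 1.80). Another draw of the thinning gave 1.09 in BM + Spl. Only this pair was read on another draw and under other settings, so all other pairs rest on 1 draw. In cells as deposited, where deeper cells count for more, 349 of 601, 143 of 232 and 247 of 365 Il13+ cells also held Il4.

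Csf1 went with Il4 in all 3 libraries in this 1 draw. Both were found in 26 cells against 14.5 under independence in C57BL/6, 17 against 8.77 in BM only and 36 against 17.8 in BM + Spl, with log2 ratios of 1.0 (0.44 to 1.57), 1.41 (0.57 to 2.26) and 1.55 (0.95 to 2.14). Csf1+ cells also held Gata3, the transcription factor gene that drives type 2 programs, more often than Csf1- cells, with log2 ratios of 0.44 (0.17 to 0.71), 0.81 (0.26 to 1.36) and 0.86 (0.39 to 1.32). For Il4 and Gata3 the intervals included 0 in each library. Il13 and Csf1 were found together in 14, 6 and 6 cells against 8.13, 3.45 and 4.58, of which only the C57BL/6 interval was above 0 (0.86, 0.13 to 1.58). These 3 secreted factors were all in the same cell in 4 C57BL/6, 1 BM only and 2 BM + Spl non-cycling cells.

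No pair of Il4 or Il13 with a receptor gene had an interval above 0. Il4 and Il17rb were found together in 27, 6 and 12 cells against 30.9, 6.29 and 14.1 under independence, and Il13 and Il6ra in 15, 2 and 5 against 17.3, 5.74 and 6.78. Il6ra and Csf1 went together in C57BL/6 (40 against 29.0, log2 ratio 0.64, 0.13 to 1.15), with intervals that included 0 in the BMT libraries. Il17rb and Il6ra went together in BM only (9 cells against 4.60, log2 ratio 1.08, 0.23 to 1.93) and BM + Spl (18 against 9.40, 1.06, 0.44 to 1.68), but with a smaller ratio in C57BL/6 (69 against 61.8, 0.21, -0.13 to 0.55). In thinned non-cycling NKT2-gated cells 43.7%, 53.2% and 53.5% showed none of the 7 genes and 18.5%, 16.0% and 15.5% showed at least 2, beside 0.835%, 1.21% and 3.38% with at least 2 among NKT1-gated cells. Among NKT1-gated cells of BM only, where 141 of 2253 thinned cells held Il4, the type 1 cytokine gene Ifng was in 38.3% of Il4+ and 48.6% of Il4- cells (log2 ratio -0.34, -0.65 to -0.04).

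**Figure D4:**
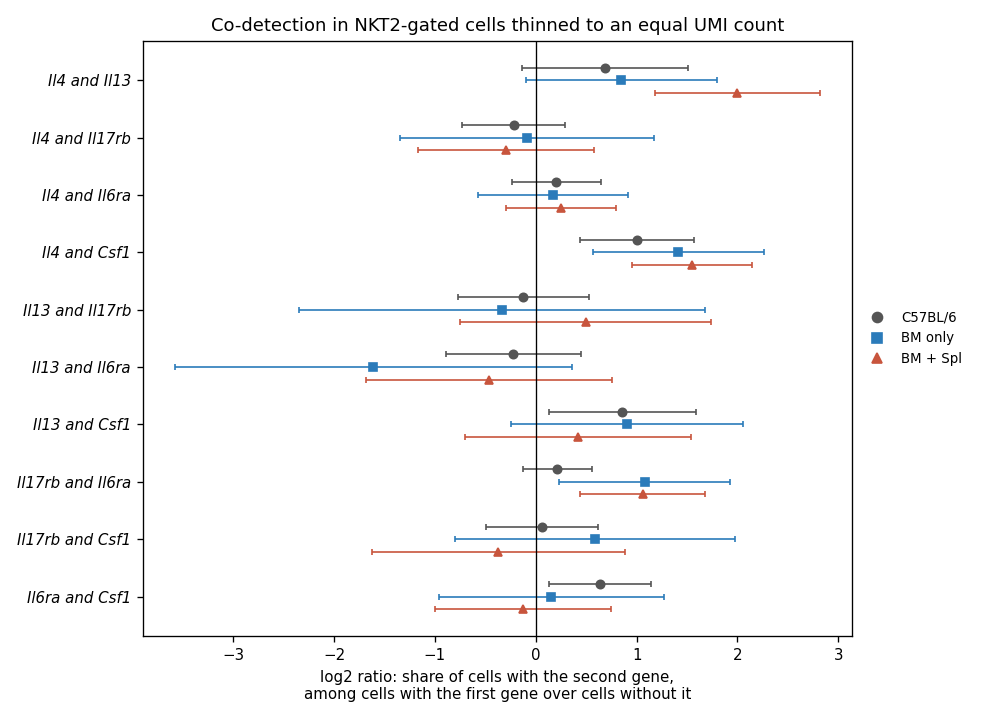
Co-detection of pairs of the 5 genes in NKT2-gated cells thinned to equal UMI counts: log2 ratio of the share of cells with the later-named gene among cells with and without the gene named before it (x axis), by pair (y axis) and library, with Katz 95% intervals. Il4 with Csf1 lies above 0 in all 3 libraries, and Il4 with Il13 does so beyond its interval in BM + Spl.

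BM + Spl was compared with BM only to ask how the genes differ between mice with and without GvHD. In non-cycling NKT2-gated cells 0 of the 5 genes with UMIs were past 1.5-fold in either direction, beside 8.84% of all genes tested, and Il5 and Csf2 could not be compared. The log2 ratios were 0.28 (0.11 to 0.46) for Il4, -0.07 (-0.40 to 0.26) for Il13, 0.13 (-0.22 to 0.50) for Il17rb, 0.08 (-0.16 to 0.32) for Il6ra and -0.06 (-0.32 to 0.20) for Csf1. Their median of 0.08 stood beside -0.03 over all genes. None of the 5 passed 1.5-fold under any of the alternative settings. With 1 library for each condition, GvHD and the library cannot be told apart.

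Other cells gave larger ratios for some of the genes. In cycling NKT2-gated cells Il13 was lower in BM + Spl than BM only (log2 ratio -0.89, -1.25 to -0.53), where 77.9% of the BM only UMIs lay in 10 cells. In intermediate cells Il4 was at 103 CPM in BM only and 207 CPM in BM + Spl (log2 ratio 1.0, 0.66 to 1.36) and Csf1 at 23.7 and 62.3 CPM (1.39, 0.70 to 2.15), and in cells with iNKT Vβ segments the ratios were 1.0 and 1.40. Il6ra had a log2 ratio of 0.03 (-0.45 to 0.52) over all intermediate cells. In NKT1-gated cells Il13, Il17rb, Csf1, Csf2 and Il5 (5 of 7) were higher in BM + Spl past 1.5-fold, where 25.4% of all genes passed that size in either direction. For Il5 and Il13 the difference rested mostly on 1 cell each, which held 27 of 29 Il5 UMIs and 64 of 74 Il13 UMIs of BM + Spl. Il13 was found in 1.44% and 1.5% of cells. Il17rb rested on few UMIs, 14 in BM only and 13 in BM + Spl, and no background level was at hand for it. In cells with iNKT Vβ segments its log2 ratio was 2.71 (1.34 to 4.04), from 12 and 10 UMIs. Markers of type 2 innate cells, mast cells and basophils summed to 23.1 CPM in these cells of BM + Spl (67 UMIs of 3 of 8 markers, with Fcer1a, Mcpt8 and Ms4a2 at 0) against 3.06 CPM in BM only, and their part in the result was not tested. Csf1 was at 13.9 and 85.7 CPM (2.62, 2.32 to 2.92), Csf2 at 8.40 and 52.6 CPM (2.65, 2.26 to 3.04), whereas Il4 was at 28.7 and 30.3 CPM (0.08, -0.28 to 0.42). The shares of iNKT Vβ segments given above differed between these gates. Among NKT1-gated cells with such segments (1827 in BM only and 194 in BM + Spl) Csf1 kept a log2 ratio of 2.27 (1.84 to 2.69), whereas Csf2 was at 8.24 and 8.84 CPM with a ratio of 0.10 (-1.02 to 1.06). The higher Csf1 was thus found in NKT1-gated cells with and without iNKT segments, and the higher Csf2 in those without them. The latter held 143 of the 153 Csf2 UMIs of BM + Spl, and 73 of the 153 lay in 1 cell. CD8+ and Foxp3+ cells carry these segments too, so the split does not separate iNKT cells from other T cells. NKT17-gated cells gave Csf1 at 5.15 and 47.6 CPM (3.21, 2.31 to 4.23), and 3.42 (2.33 to 4.66) within iNKT segments. Foxp3+ cells gave 18.0 and 83.1 CPM (2.21, 1.68 to 2.78), and CD8+ cells 17.6 and 27.2 CPM (0.62, -0.11 to 1.43). Csf2 of NKT17-gated cells was at 33.0 CPM in BM only and 55.9 CPM in BM + Spl. Within iNKT segments the order turned, at 48.9 and 16.0 CPM (-1.61, -2.88 to -0.55), from 69 and 8 UMIs.

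**Figure D5:**
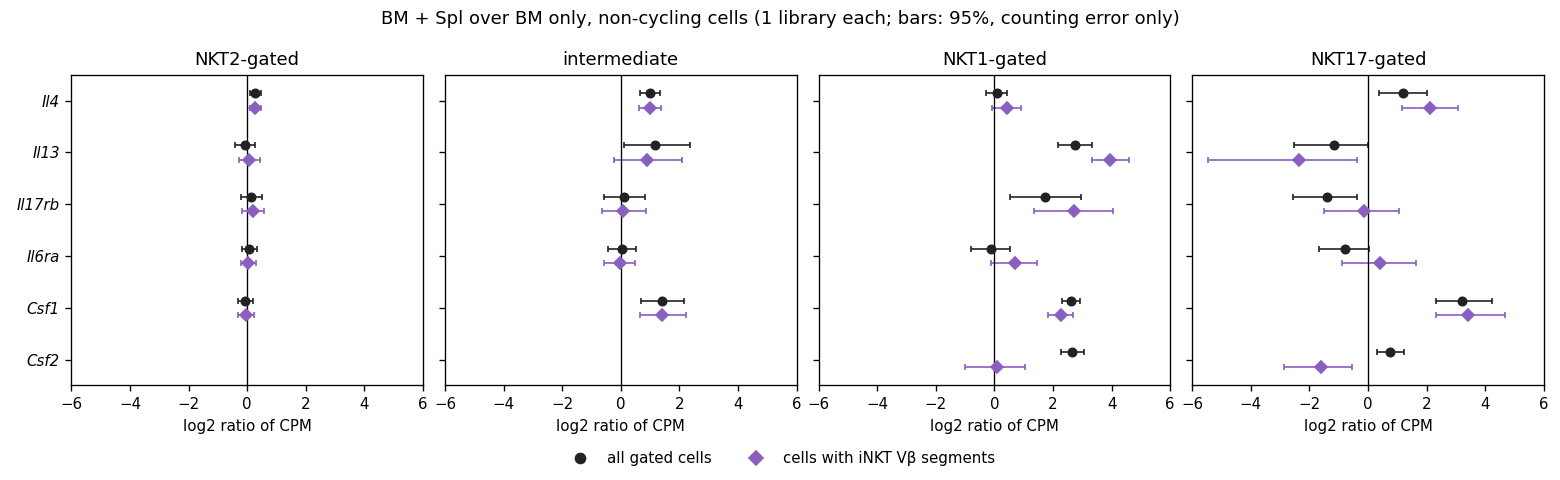
Log2 ratio of CPM of BM + Spl over BM only (x axis) for each gene with UMIs in both (y axis), in non-cycling NKT2-gated, intermediate, NKT1-gated and NKT17-gated cells (panels), for all gated cells (black circles) and for cells with iNKT Vβ segments (violet diamonds), with exact 95% counting intervals. Points of the NKT2 panel lie near 0, Csf1 lies above 0 in the other 3 panels, and Csf2 of the NKT1 panel moves to 0 in cells with iNKT segments.

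CCR7, a chemokine receptor, marks the NKTp precursors, and a Ccr7 UMI was present in 153 of 984, 108 of 331 and 177 of 607 non-cycling NKT2-gated cells. Il4 was lower in Ccr7+ than Ccr7- cells of BM + Spl, at 118 and 171 CPM (log2 ratio -0.53, -0.77 to -0.30), but at 129 and 128 CPM in BM only and 55.6 and 50.0 CPM in C57BL/6. Il6ra was higher in Ccr7+ cells of BM only (92.6 and 63.3 CPM, 0.55, 0.14 to 0.95). All other intervals of Il4, Il13, Il17rb, Il6ra and Csf1 included 0.

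Other genes of the pathway were read as lists in NKT2-gated over NKT1-gated cells, in the order C57BL/6, BM only and BM + Spl. Members named beyond the 3 with most UMIs of each list were chosen after their values were seen. Of 10 genes tested among 12 on a list of type 2 transcription factors, which also holds Ecm1, the gene of a secreted matrix protein, 2 were higher (Irf4 and Ecm1) and 1 lower (Junb) by 2-fold in C57BL/6, 1 higher (Ecm1) and 1 lower (Junb) in BM only, and 0 higher and 4 lower (Irf4, Junb, Batf and Ecm1) in BM + Spl, with medians of 0.07, 0.01 and -0.74. Gata3 was at 196, 128 and 121 CPM in NKT2-gated cells with log2 ratios of 0.46, 0.76 and 0.36. Maf, which activates Il4, had ratios of -0.18, -0.49 and -0.63, and Junb, a part of AP-1, of -1.46, -1.96 and -1.78. Gata3 was thus above and Junb below the level of NKT1-gated cells in each library, by less than 2-fold for Gata3.

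Of 6 other cytokines tested among 13, 3 (Il21, Tnfsf11 and Lif), 2 (Il21 and Tnfsf11) and 0 were higher, and 2 (Il2 and Ifng), 4 (Il2, Areg, Tnf and Ifng) and 5 (the same with Tnfsf11) were lower, with medians of 1.34, -1.55 and -3.82. Ifng, the type 1 cytokine gene, had log2 ratios of -3.87, -8.11 and -5.24, and Tnf of -0.18, -2.07 and -2.39. Tnfsf11, the RANKL gene, which acts on thymic epithelium, had ratios of 2.87, 2.86 and -1.99. Its order thus turned in BM + Spl, where NKT1-gated cells held 150 CPM and NKT2-gated cells 37.6 CPM.

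Of 7 receptors and adaptors of these cytokines tested among 13, 0, 0 and 1 (Csf2ra) were higher, and 1 (Il4ra), 3 (Il4ra, Il17ra and Il6st) and 3 (Il4ra, Traf3ip2 and Il6st) were lower, with medians of -0.40, -0.42 and -0.52. Il2rg, the common γ chain of the IL-2 and IL-4 receptors, had ratios of -0.40, -0.37 and -0.41, the signalling adaptor Traf6 of -0.14, 0.22 and -0.52, and Il17ra, the partner of IL-17RB, of -0.79, -1.34 and 0.26. Il4ra, the receptor chain that IL-4 and IL-13 share, was at 2.11, 1.02 and 2.06 CPM in NKT2-gated cells against 19.5, 28.9 and 20 CPM in NKT1-gated cells. NKT2-gated cells thus held more Il4 but less RNA of its receptor than NKT1-gated cells.

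Of 5 alarmin and Th2 chemokine receptors tested among 7, 2 (Ccr4 and Il9r), 1 (Ccr4) and 1 (Ccr4) were higher, and 1 (Ccr8), 2 (Il1rl1 and Ccr8) and 2 (the same) were lower, with medians of -0.31, -0.91 and -0.69. Ccr4, a chemokine receptor of Th2 cells, was at 73.5, 101 and 120 CPM in NKT2-gated cells with log2 ratios of 3.18, 3.82 and 2.62. Il7r, the IL-7 receptor gene, had ratios of -0.53, -0.91 and -0.31, and Crlf2, the TSLP receptor gene, of -0.31, -0.33 and -0.69. Of 5 neighbours of the cytokine genes tested among 8, 1 (Kif3a), 2 (Kif3a and Sept8) and 1 (Sept8) were higher and 0 lower, with medians of 0.03, -0.14 and -0.05. Rad50, a DNA repair gene that lies between Il13 and Il5, had ratios of -0.22, -0.14 and -0.23, and Irf1 of -0.76, -0.83 and -0.65. Kif3a, 1.01 kb from Il4, had ratios of 1.13, 1.39 and 0.86.

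The genes whose levels followed Il4, Il13 and Il17rb most closely were taken from 8585 genes over 15 points, 5 subsets in each of 3 libraries. The points share their libraries, so Pearson's r is a description only. For Il4 these were Lims1 (0.956), Hsbp1 (0.945), Cldn10 (0.943), Gm20324 (0.938) and Hacd3 (0.934), and none of them remained once levels were centred within each library, where Pbx2 led (0.980). For Il13 they were Fmnl3 (0.927), Mrpl21 (0.921), Ckap4 (0.919), Ctnnbip1 (0.918) and Mctp1 (0.911), and Fmnl3 still led after centring (0.961). For Il17rb they were Chdh (0.957), Rpl28 (0.937), Itgb3 (0.923), Marc2 (0.914) and Pdha1 (0.910), and after centring Itgb3 (0.980) and Chdh (0.928) were still among the leading 5. Chdh, the choline dehydrogenase gene, starts 126 bases from Il17rb on the opposite strand.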

How the data were processed

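Sorted thymic iNKT cells (positive for TCRβ and CD1d tetramer, negative for CD24 and NK1.1) were sequenced in 3 droplet libraries, 1 per condition. The authors aligned reads to mm10 with Cell Ranger and deposited raw UMI counts per gene and cell barcode. The matrix headers name version 3.0.2 for C57BL/6 and 7.0.0 for both BMT libraries. The submitters' processing notes name Seurat 4.0.2, which was not used here. Strand of counting is not given in the sources used here.

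Barcodes were kept at more than 200 but fewer than 6000 genes and mitochondrial UMIs below 10% (4434 of 4613, 5970 of 5986 and 5557 of 5573), with 60600408, 35041153 and 43383960 UMIs in all and medians of 12086.5, 4740 and 6495 UMIs per kept cell. Of these, 13, 835 and 472 cells under 2500 UMIs were left out. The other cells were thinned to 2500 UMIs (seed 1) for the gates, the Ccr7 split and co-detection, whereas levels used all UMIs, as CPM over 30406 shared gene IDs. Cells with a Foxp3 UMI, 2 or more Cd8a and Cd8b1 UMIs, or 2 or more B cell or myeloid markers were kept out of the iNKT gates. The last rule also removed cells with NKT1 markers. Their median was 4 in the 14 non-cycling cells so removed from C57BL/6, and 1 in each BMT library. Doublets were not called, and an alternative left out the 5% of cells with most UMIs. A cell counted as carrying iNKT Vβ segments where at least 80% of its Trbv UMIs were on Trbv1, Trbv12-2, Trbv13-1, Trbv13-2, Trbv13-3 or Trbv29.

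Intervals (95%) are exact Poisson for CPM, Clopper-Pearson for shares, exact conditional binomial for log2 ratios and Katz for ratios of shares. Coverage was checked on simulated data for the log2 ratios of CPM only. The simulated counts were Poisson, as that interval assumes, so the check does not cover UMIs concentrated in few cells. Limits at 0 are 3 counts over the group. Genes counted for the shares past 2-fold or 1.5-fold held 20 or more UMIs over both groups. The 7 genes and all lists were chosen with earlier results of these data known. All 7 genes are described, of each pathway list the 3 genes with most UMIs are described, and genes of like pattern are the 5 with the highest r among genes with 200 or more UMIs in each library. Python 3.11.15, numpy 2.4.6, scipy 1.17.1, pandas 2.3.3 and matplotlib 3.10.9 were used.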

Additional observations from a re-analysis of the deposited data

How the results depend on the processing

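With 1 library per condition, replicates could not be left out, and no test or p-value was computed. No paired analysis was possible because each condition has 1 library. Over 14 alternative settings, of which the restriction to iNKT Vβ segments and the removal of shared barcodes were chosen after seeing the data, 150 counts and co-detection ratios kept within 1.5 times or their interval and 9 did not, and of the ratios of single genes 390 kept within their interval, 62 moved and 3 reversed. The number of genes higher in NKT2-gated cells stayed at 5 in C57BL/6 and BM only and at 3 or 4 in BM + Spl, and the number past 1.5-fold between the BMT libraries at 0. The count of genes lower in cycling cells of C57BL/6 was 2 in place of 4 when cells were gated on counts as deposited. In BM only it was 4 in place of 2 with 2 or 4 markers required, a total without mitochondrial, ribosomal protein and receptor segment genes, the top 10 cells of each gene left out, or another seed. With that total no gene (0) was higher in cycling cells of C57BL/6, since Il13 fell short of 1.5-fold. Il4 and Il13 co-detection was 1.53 in C57BL/6 when gated as deposited and 1.09 in BM + Spl with another seed, in log2. Reversed were Csf1 in cycling over non-cycling cells of BM + Spl, at 0.10 with the NKT2 list short of Pdcd1, Id3 and Tox and 0.14 without the 5% of cells with most UMIs, and Il13 in NKT2-gated over NKT1-gated cells of BM + Spl, at -0.53 with iNKT Vβ segments only. The causes were not tested. The alternative restricted to Trav11 UMIs was not run, since under 20% of cells had one in each library. Depth limits what the 0 counts of Il5 and Csf2 in NKT2-gated cells can show.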
